A study of Mus musculus with 8 samples.

Results

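The effect of retinoic acid (RA) on spermatogonial stem cell (SSC) culture in nutrient restriction medium was measured by RNA sequencing, as the difference between cells given nutrient restriction with RA (NRRA) and cells given nutrient restriction alone (NR). These 4 libraries, 2 NRRA and 2 NR, were chosen by their labels from the 8 libraries of the series. The other 4, from complete medium with vehicle (Veh) or RA, entered the estimate of the spread and the test of whether the RA response differed between the media. The cultures derived from testicular cells of 6-day-old F1 pups (C57BL/6 x DBA/2). They were kept with GDNF and FGF2 on a feeder layer of irradiated mouse embryonic fibroblasts (MEFs). The NR medium held 10% complete SSC medium and 90% Earle's balanced salt solution, and NRRA cells received 100 nM RA in that medium for 2 days. GDNF, FGF2 and serum of the complete medium were thereby diluted too, alike in NR and NRRA. RA cells received the same dose in complete medium, with DMSO as vehicle. No allele was altered in any group. RNA of the feeders can be present in each library, so the values are averages over germ cells and feeders, and in such bulk samples fewer cells of a type and less RNA per cell cannot be told apart. Reads per gene were counted by the authors, and levels are given here as CPM, the reads of a gene set against the total reads of its library (TMM-scaled), which are not divided by gene length and are compared between libraries only.

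RA is made from vitamin A (retinol). Retinol enters cells through STRA6, is stored as esters by LRAT, and is oxidized to retinaldehyde and then to RA by retinol and retinaldehyde dehydrogenases, while the CYP26 enzymes break RA down. RA binds nuclear receptors (RARs) that pair with RXRs on repeats of a short DNA motif and switch on genes nearby, several of which limit RA itself. In the testis, RA drives undifferentiated spermatogonia to become KIT-positive differentiating spermatogonia and switches on *Stra8*, the gatekeeper of meiotic entry. GDNF, acting through GFRA1 and RET, holds spermatogonia in the undifferentiated state.

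The counts of the NR libraries summed to 21173926 and 26944852 and those of the NRRA libraries to 27087536 and 30023585. The replicates of NR (chi-square of 1.58 per gene) and of NRRA (1.73) differed by more than sampling noise. The chi-square was 2.12 for RA and 3.93 for Veh, so the spread shared by all groups averages over unequal ones. Replicates were counted as separate because the study describes them as independent. That spread was small, a common coefficient of variation of 3.35%, and the p-values rest on it. Whether it is the spread of separate cultures or only of library preparation cannot be told from the counts. Germ cell and feeder genes were both present. *Ddx4*, an RNA helicase of all germ cells, had 188 and 178 CPM in NR and 175 and 191 CPM in NRRA, ranges that overlap. *Col1a1*, a fibroblast collagen, had 7628 and 8110 CPM in NR and 7792 and 7416 CPM in NRRA, which also overlap. Summed over 22 germ cell identity genes, the level was 1828 and 1796 CPM in NR and 1997 and 2047 CPM in NRRA. Summed over 22 MEF markers it was 36020 and 37410 CPM in NR and 30010 and 29200 CPM in NRRA, lower in both NRRA libraries. Of those 22 markers, 4 had an adjusted p under 0.05 above 0 and 16 below 0, against 21.3% and 22.1% of all tested genes. The part of this shift in the results below was not tested, apart from the values given beside them.

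In NRRA compared with NR, 933 of 20477 tested genes were higher (4.56%) and 848 were lower (4.14%), at an adjusted p under 0.05 in edgeR's quasi-likelihood test and a fold change of at least 2, the rule for every gene called here. Both directions were about equally frequent, and the median log2 fold change over all tested genes was 0.01. With no fold limit, an adjusted p under 0.05 was reached by 4353 genes above 0 (21.3%) and 4535 below 0 (22.1%). The called changes were mostly moderate, with a median log2 fold change of 1.51 among the higher genes and -1.60 among the lower genes. At least 8-fold changes were found for 68 of the higher and 104 of the lower genes. The NR and NRRA libraries did not overlap for 931 of the 933 higher and 847 of the 848 lower genes. Among all 20477 tested genes, 7535 lay above and 7307 below without overlap. The calls were made on these same libraries, so their separation adds no support. Calls were more frequent among weakly expressed genes. When genes were split by mean count into 4 bins of about equal size, 8.74% were higher and 7.49% lower in the lowest bin, against 0.801% and 1.62% in the highest bin.

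**Figure D1:**
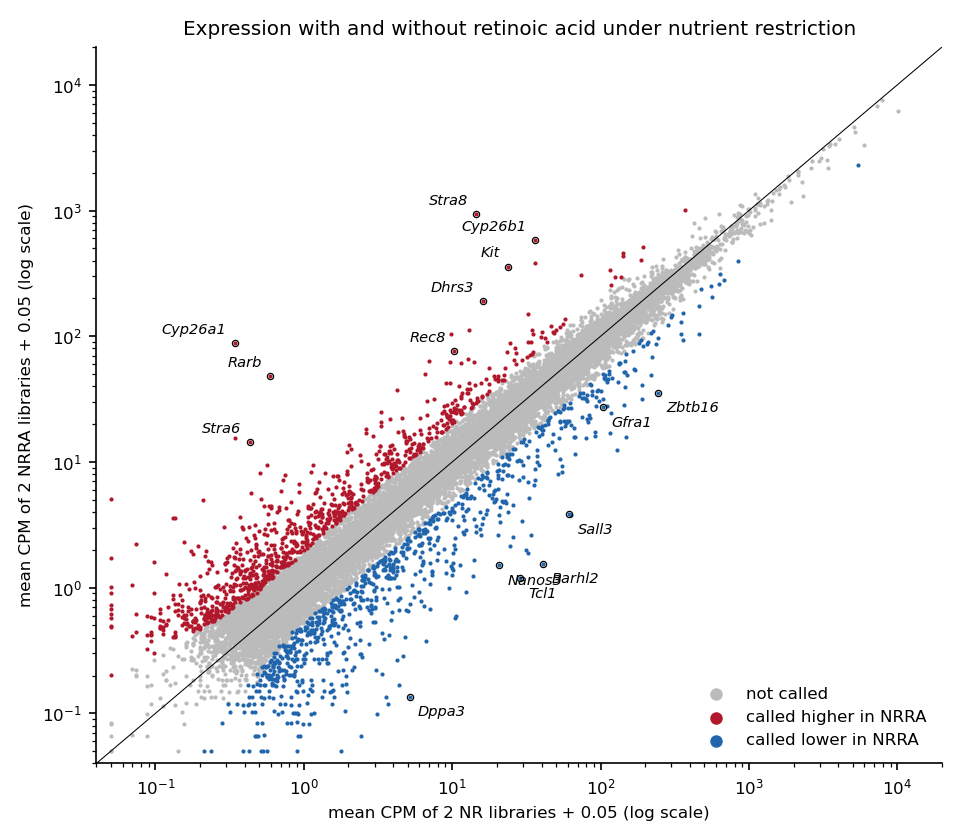
Mean CPM of the 2 NR libraries (horizontal axis) against the 2 NRRA libraries (vertical axis), with 0.05 CPM added and both axes on a log scale. Each point is 1 of 20477 tested genes, red for the 933 called higher in NRRA, blue for the 848 called lower and grey for the rest, and named genes are circled. *Stra8*, *Cyp26a1* and *Rarb* stand far above the diagonal, while *Tcl1*, *Barhl2* and *Dppa3* stand far below it.

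Genes that handle RA were among those that rose most. Of 30 tested genes of retinoid uptake and metabolism, 9 were called higher and 1 lower, where 4.56% and 4.14% of all tested genes were, and the list's median log2 fold change was 0.19. *Cyp26a1* (ENSMUSG00000024987, chromosome 19 from 37697798 to 37701536), an RA-degrading enzyme, had 0.241 and 0.342 CPM in NR and 89.0 and 86.5 CPM in NRRA. It passed from close to the limit of detection to a clear signal in both NRRA libraries (8.18 on the log2 scale, SE 0.13, edgeR adjusted p = 1.21e-25). *Cyp26b1*, which has the same activity, was at 36.8 and 34.97 CPM in NR and at 588 and 582 CPM in NRRA (log2 fold change 4.03, SE 0.05, edgeR adjusted p = 5.56e-27). *Cyp26c1*, the remaining member of the family, rose from 0.385 and 0.532 CPM to 8.004 and 8.09 CPM (4.09, SE 0.22). All 3 breakdown enzymes were thus higher with RA. *Dhrs3*, a reductase that returns retinaldehyde to retinol, rose from 17.0 and 15.04 CPM to 187 and 194 CPM (3.58, SE 0.07). *Stra6*, the retinol transporter, rose from 0.193 and 0.570 CPM to 14.5 and 14.1 CPM (5.13, SE 0.21). Its value was 4.615 without NR replicate 1 and 6.16 without NR replicate 2. *Crabp2*, which carries RA to the nucleus, rose from 9.30 and 9.80 CPM to 60.9 and 63.2 CPM (2.70, SE 0.07). The esterifying enzyme *Lrat* (2.06) and the alcohol dehydrogenase *Adh1* (1.08) were also called higher on the log2 scale. Among enzymes that make RA, *Aldh1a3* fell from 3.28 and 3.34 CPM to 0.929 and 0.931 CPM (-1.83, SE 0.22). *Rdh10* (-0.53) and *Aldh1a2* (0.36) stayed under the 2-fold limit with adjusted p of 6.44e-05 and 0.00201 in edgeR's test.

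RARs with RXRs bind a short motif that is repeated, and a repeat spaced by 5 bases is their best known element. The motif was searched as NGNTCA, given again after 5 bases, on both strands, in promoter windows from 250 bases before to 50 bases after each start site (RefSeq, GRCm38.p6). Of 23 genes called higher in the retinoid, RA target and *Hox* lists, 17 had a window, and 2 of these, *Cyp26a1* and *Rarb*, held the repeat. Their windows are shown because these are the called genes of those lists with the element, with the repeat in capitals. In *Cyp26a1* (chr19:37697558-37697857, plus strand) it reads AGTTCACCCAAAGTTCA on the minus strand and lies from 32 to 16 bases before the start site. In *Rarb* (chr14:16575427-16575726, minus strand) it reads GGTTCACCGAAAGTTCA on the gene's own strand and lies from 53 to 37 bases before the start site.
Cyp26a1: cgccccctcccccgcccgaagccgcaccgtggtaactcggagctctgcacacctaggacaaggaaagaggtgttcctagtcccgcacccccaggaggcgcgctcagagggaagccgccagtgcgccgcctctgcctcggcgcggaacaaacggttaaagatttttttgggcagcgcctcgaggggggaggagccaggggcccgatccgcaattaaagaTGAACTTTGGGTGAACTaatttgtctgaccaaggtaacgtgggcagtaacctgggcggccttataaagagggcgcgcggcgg
Rarb: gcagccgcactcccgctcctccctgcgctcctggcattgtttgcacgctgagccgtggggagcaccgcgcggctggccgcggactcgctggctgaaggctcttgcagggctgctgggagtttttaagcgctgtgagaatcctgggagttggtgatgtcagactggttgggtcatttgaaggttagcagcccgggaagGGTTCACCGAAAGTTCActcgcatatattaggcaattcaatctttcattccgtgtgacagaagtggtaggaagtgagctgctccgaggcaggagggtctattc
The repeat was in 0.861% of all 32851 windows, in 0.607% of the windows of tested genes, in 1.52% (12 of 791) of those of genes called higher and in 1.27% (9 of 710) of those of genes called lower. A match is a description of the letters and shows no binding.

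Of 28 receptors and coregulators, 2 were called higher and 2 lower, with a median log2 fold change of 0.10. These counts are near the shares of all tested genes (4.56% and 4.14%) and are not a result about the list, and scaling by library totals gave 4 higher. *Rarb* (chromosome 14 from 16430839 to 16819156), itself an RA target, rose from 0.482 and 0.608 CPM to 47.5 and 48.8 CPM (6.43, SE 0.13, edgeR adjusted p = 5.19e-23). Of its exon bases, 34.1% overlap *Top2b* on the opposite strand, where reads cannot be assigned with certainty. The other RARs stayed under the 2-fold limit, with log2 fold changes of 0.14 for *Rara* and -0.21 for *Rarg*. *Rxrg*, a partner receptor, fell from 2.51 and 3.19 CPM to 0.357 and 0.899 CPM (-2.16, SE 0.29). *Nr6a1*, the germ cell nuclear factor, rose from 27.2 and 25.6 CPM to 80.5 and 81.2 CPM (1.62, SE 0.06).

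Among 32 known RA target genes, 14 were called higher and 4 lower, against 4.56% and 4.14% of all tested genes, and the median log2 fold change was 0.75. Some of these genes also stand in the retinoid lists. *Tgm2*, a transglutaminase, rose from 35.6 and 36.8 CPM to 383 and 377 CPM (3.39, SE 0.06). *Cdx1*, a homeobox gene, had 1 count in both NR libraries together and 129 in both NRRA libraries, a ratio of 103 with an exact 95% interval for counting error of 18.1 to 4.09e+03. *Gbx2* (2.68), *Hoxb1* (1.90) and *Hic1* (1.16) also rose on the log2 scale. The 4 lower targets were *Ret* (-2.57), *Prdm1* (-2.33), *Egr1* (-1.45) and *Ass1* (-1.39). The *Hox* genes, which pattern the body axis, moved both ways, with 5 of 34 higher and 3 lower and a median of 0.09. The higher members were *Hoxa2*, *Hoxa4*, *Hoxa5*, *Hoxb1* and *Hoxb13*, with log2 fold changes of 1.29, 1.22, 1.11, 1.90 and 1.39. The lower members were *Hoxc11* (-3.34), *Hoxc12* (-3.25) and *Hoxc13* (-1.14), all at the 5′ end of 1 cluster. *Hoxc11* fell from 8.53 and 10.5 CPM to 0.929 and 0.963 CPM.

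Several activators of meiotic entry rose with RA, *Stra8* the most. *Stra8* (ENSMUSG00000029848, chromosome 6 from 34920163 to 34939344) had 14.6 and 14.3 CPM in NR and 917 and 957 CPM in NRRA (6.02, SE 0.06, edgeR adjusted p = 1.49e-30). *Gm4969*, known as MEIOSIN and the partner of STRA8, rose from 2.89 and 3.34 CPM to 9.79 and 11.3 CPM (1.75, SE 0.14). *Meioc*, which with YTHDC2 keeps the meiotic program on, rose from 12.4 and 13.2 CPM to 35.9 and 34.9 CPM (1.46, SE 0.09). *Ythdc2* had a log2 fold change of 0.45 (edgeR adjusted p = 0.000192), under the 2-fold limit. Of 17 regulators of meiotic entry, 4 were called higher and 4 lower, against 4.56% and 4.14% of all tested genes, with a median of -0.08. Of the 4 lower ones, *Nanos2* (-5.64) and *Nanos3* (-3.84) encode RNA-binding proteins of undifferentiated germ cells, *Bcl6b* (-2.05) is a GDNF-responsive gene, and *Msx2* (-1.29) is a homeobox gene that BMP signalling induces. *Rbm46* (1.06) was the remaining higher one.

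The cohesin *Rec8* (chromosome 14 from 55618037 to 55625395) rose from 8.34 and 12.2 CPM to 76.6 and 76.1 CPM (2.87, SE 0.09, edgeR adjusted p = 6.77e-19), the largest change in the list of the meiotic chromosome axis. Of the 22 tested genes of that list, 2 were called higher (*Rec8* and *Sycp2l*) and 0 lower, with a median of 0.46. By edgeR, 13 had an adjusted p under 0.05 above 0 and 0 below 0, where 21.3% and 22.1% of all tested genes did. *Sycp2l*, at under 1 CPM in all 4 libraries, lost its call with DESeq2 and when NR replicate 1, NR replicate 2 or NRRA replicate 2 was left out, which left 1 gene called. Most axis genes differed by less than 2-fold. *Sycp3*, the lateral element of the synaptonemal complex, was at 19.5 and 19.9 CPM in NR and 36.0 and 35.8 CPM in NRRA (0.87, SE 0.08), and 52.2% of its exon bases overlap *Chpt1* on the opposite strand. *Sycp1*, the transverse filament, had a log2 fold change of 0.47. Among all tested genes 4.56% were higher and 4.14% lower, and counts of called genes this small are not read as results about these meiotic lists. Of 35 genes of break formation and recombination, 3 were called higher and 0 lower, with a median of 0.24. These were *Dmc1*, the meiotic recombinase, from 9.06 and 9.34 CPM to 19.5 and 20.96 CPM (1.14, SE 0.10), *Prdm9*, which places the breaks (1.47), and *Mei1*, needed to form them (1.30). *Spo11*, the enzyme that makes the breaks, had 2.31 and 2.58 CPM in NR and 2.75 and 1.70 CPM in NRRA, which overlap (-0.16, SE 0.22, edgeR adjusted p = 0.609). Late spermatocyte and spermatid genes moved both ways, with 4 of 24 higher and 3 lower and a median of -0.02. The higher ones were *Ccna1*, *Ly6k*, *Rfx2* and *Spata16*, of which *Spata16* stayed under 1 CPM in all 4 libraries. Without NR replicate 2, 1 gene was called lower in place of 3.

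**Figure D2:**
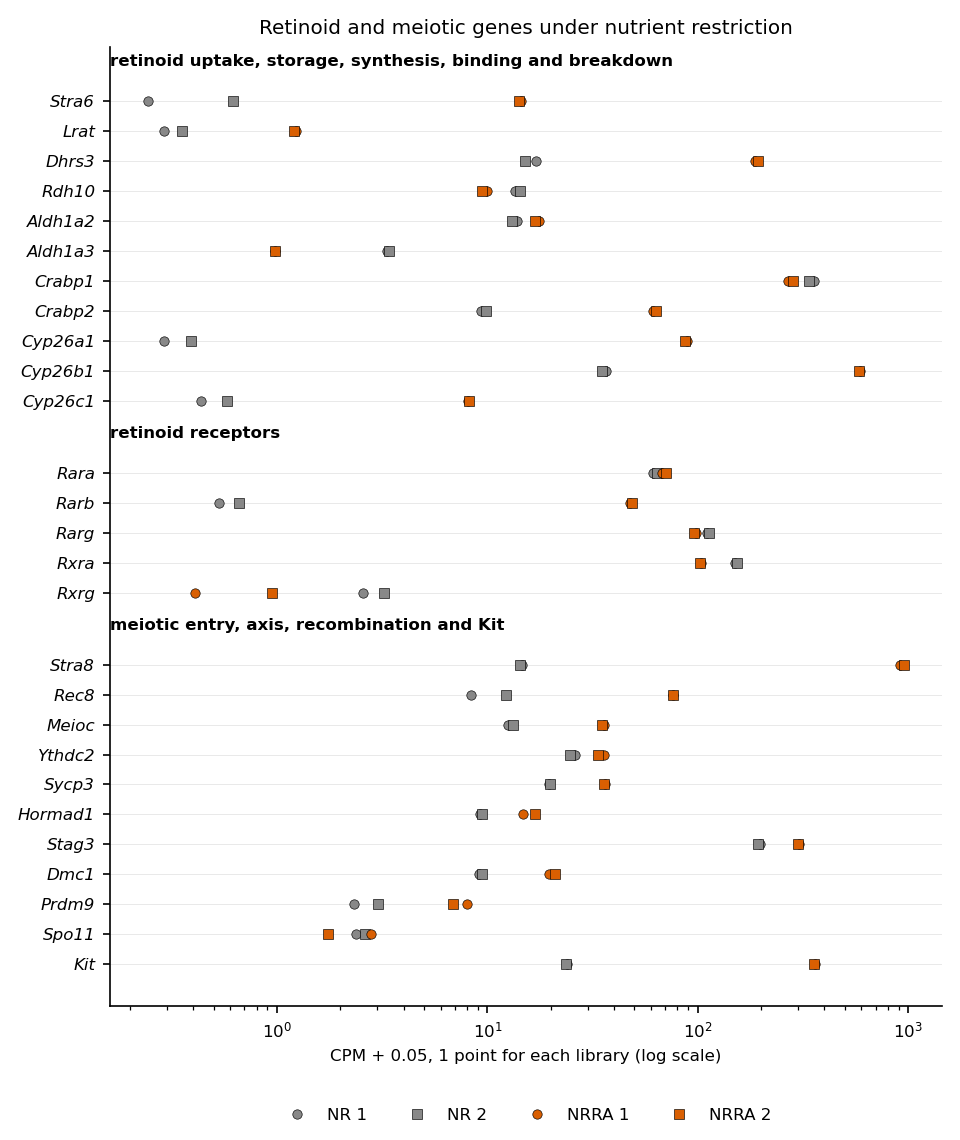
CPM plus 0.05 on a log scale for retinoid, receptor and meiotic genes, with 1 point for each library, grey for NR and orange for NRRA. Groups lie far apart for *Cyp26a1*, *Rarb*, *Stra8* and *Kit*, and their points overlap for *Spo11*.

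More than any other list examined, genes of undifferentiated spermatogonia were called lower. Of 40 tested, 0 were higher and 22 lower, against 4.56% and 4.14% of all tested genes, with a median log2 fold change of -1.96. At an adjusted p under 0.05 in edgeR's test, 3 were above 0 and 31 below 0, against 21.3% and 22.1% of all tested genes. Of the 35 members averaging at least 50 counts over the 8 libraries, 17 were lower, and their median was -0.96, so the size of the median depends on weakly expressed members. *Zbtb16* (chromosome 9 from 48654297 to 48836222), a transcription factor needed to keep the stem cell pool and also known as PLZF, fell from 239 and 249 CPM to 35.7 and 35.2 CPM (-2.78, SE 0.05, edgeR adjusted p = 1.61e-23). *Gfra1* (chromosome 19 from 58235604 to 58455909), the GDNF coreceptor, fell from 108 and 100 CPM to 27.8 and 26.6 CPM (-1.94, SE 0.06). *Ret*, the signalling receptor of GDNF, fell from 185 and 193 CPM to 31.8 and 31.8 CPM (-2.57, SE 0.06). Both GDNF receptor genes were lower with RA. Genes that GDNF signalling is known to induce were lower as well: *Etv5* fell from 109 and 112 CPM to 28.5 and 27.3 CPM (-1.99, SE 0.06), *Lhx1* fell from 29.6 and 33.1 CPM to 1.89 and 1.99 CPM (-4.01, SE 0.12), and *Bcl6b* had a log2 fold change of -2.05. *Tcl1*, a cofactor of AKT, fell from 30.3 and 27.3 CPM to 1.21 and 1.06 CPM (-4.66, SE 0.13). *Nanos3* fell from 19.7 and 21.7 CPM to 1.86 and 1.06 CPM (-3.84, SE 0.16). *Nanos2* had 170 counts in both NR libraries and 4 in both NRRA libraries, a ratio of 53.4 (exact 95% counting interval 20.5 to 198), and 49.0% of its exon bases overlap *Gm45058* on the opposite strand. *Pdx1* had no count in NRRA and was at least 4.70-fold lower there, with 3 counts in each library as the limit. The primed progenitor gene *Neurog3* also fell, from 4.24 and 4.18 CPM to 0.179 and 0.257 CPM (-4.23, SE 0.30).

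Some members of that list did not pass the 2-fold limit. *Id4*, a marker of stem cells, had 19.5 and 22.2 CPM in NR and 14.6 and 15.8 CPM in NRRA (-0.46, SE 0.09, edgeR adjusted p = 9.3e-05). *Lin28a*, an RNA-binding protein, had a log2 fold change of -0.92, and *Thy1*, which feeder cells express too, of -0.49. *Sall4*, a transcription factor of both undifferentiated and differentiating spermatogonia, was at 125 and 131 CPM in NR and 204 and 197 CPM in NRRA (0.64, SE 0.05). Over the same 4 libraries the summed level of this list was 3618 and 3643 CPM in NR and 2047 and 2044 CPM in NRRA, while that of the germ cell identity list was higher in NRRA, as given above. Within germ cell identity, 0 of 22 were called higher and 3 lower, against 4.56% and 4.14% of all tested genes, with a median of 0.10. These were *Dppa3*, *Prdm1* and *Tfap2c*, genes of primordial germ cells and pluripotent cells. *Dppa3* had 240 counts in both NR libraries and 5 in both NRRA libraries, a ratio of 60.3 (exact 95% counting interval 25.5 to 187).

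Of 26 genes of spermatogonial differentiation, 5 were called higher and 4 lower, against 4.56% and 4.14% of all tested genes, with a median of 0.06. *Kit* (chromosome 5 from 75574916 to 75656722), the receptor that marks differentiating spermatogonia, rose from 23.8 and 23.6 CPM to 359 and 357 CPM (3.92, SE 0.05, edgeR adjusted p = 5.56e-27). Besides *Kit*, *Stra8* and *Dmc1*, the higher members were *Rhox13* (1.16), an X-linked homeobox gene translated in differentiating germ cells, and *Prss50* (1.63), a testis protease. The lower members were *Dmrtb1* (-2.05), a factor of the passage from spermatogonia to meiosis, *Dnmt3l* (-1.52), a cofactor of DNA methylation, *Upp1* (-1.21) and *Lmo1* (-1.16). *Dnmt3l* was also 1 of 3 lower genes among 26 of the piRNA pathway, with *Spocd1* (-2.59) and *Tdrd5* (-1.36), where 0 were called higher and the median was -0.10. This count of 3 is small and is not read as a result about the pathway.

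**Figure D3:**
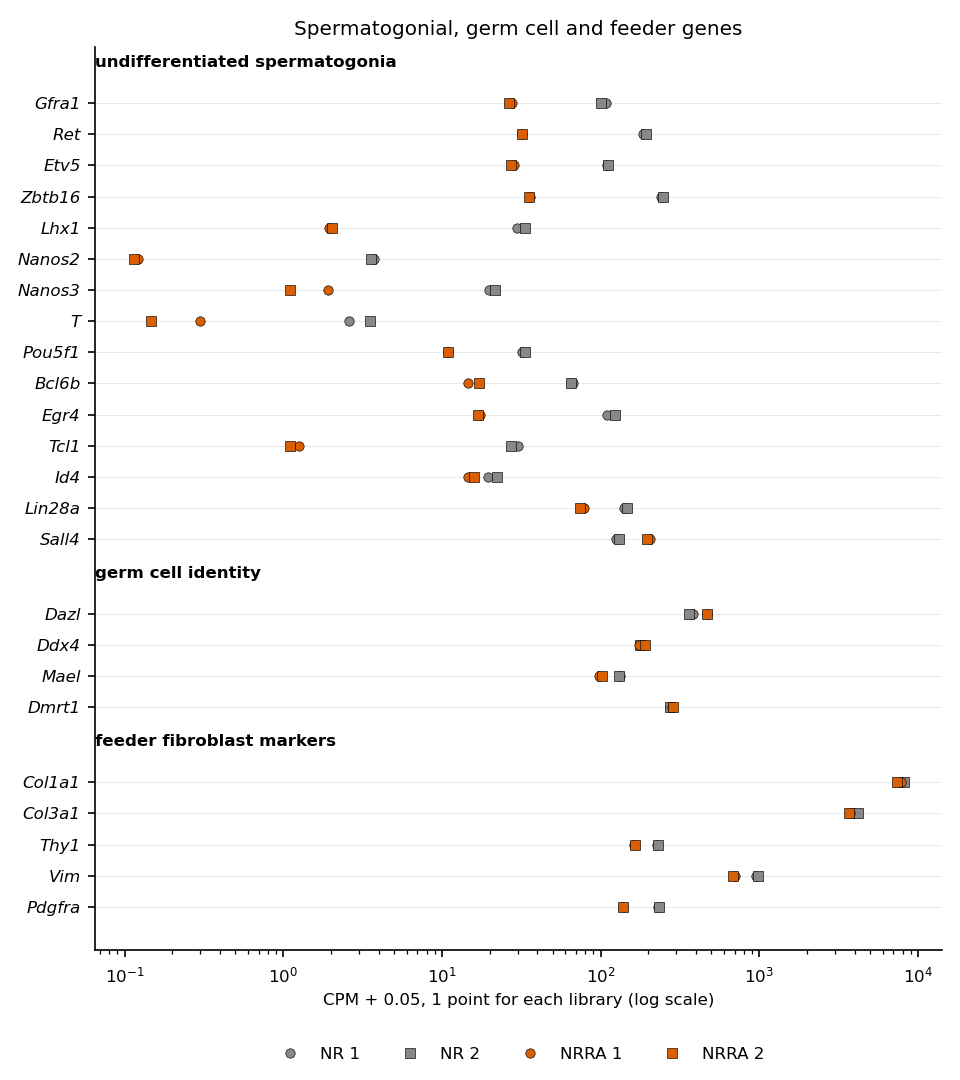
CPM plus 0.05 on a log scale for genes of undifferentiated spermatogonia, germ cell identity and feeder fibroblasts, with 1 point for each library, grey for NR and orange for NRRA. NRRA points lie left of NR points for most undifferentiated genes and to the right for *Sall4*, and the groups overlap for *Ddx4* and *Col1a1*.

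Genes of GDNF and FGF signalling were lower more often than higher, with 8 of 32 lower, 2 higher and a median of -0.20, against 4.14% lower and 4.56% higher among all tested genes. The number of higher members is near that share. *Dusp6*, a phosphatase that ERK signalling induces, fell from 81.5 and 77.3 CPM to 16.04 and 14.6 CPM (-2.37, SE 0.06). *Spry4*, a feedback inhibitor of the same pathway, fell from 50.4 and 48.2 CPM to 13.0 and 11.6 CPM (-2.004, SE 0.07). *Mycn*, which supports SSC self-renewal, fell from 54.8 and 54.5 CPM to 8.86 and 7.67 CPM (-2.73, SE 0.08). The higher members were the receptors *Fgfr3* (1.83) and *Gfra3* (1.06), and without NR replicate 2 only 1 of the pair was called. Of 28 immediate early genes, which growth factors induce within minutes, 5 were lower and 2 higher (1 without NR replicate 1), with a median of -0.25. All 4 tested *Egr* genes were among the lower ones, with log2 fold changes of -1.45 for *Egr1*, -3.38 for *Egr2*, -2.52 for *Egr3* and -2.76 for *Egr4*. *Egr2*, *Egr3* and *Egr4* are counted in the list of undifferentiated spermatogonia too.

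In the BMP and TGF beta pathway, 9 of 37 genes were lower and 2 higher, against 4.14% and 4.56% of all tested genes, with a median of -0.38. Several of the lower ones encode secreted antagonists of BMP or activin: *Fst* fell from 145 and 144 CPM to 28.9 and 27.4 CPM (-2.36, SE 0.06), *Chrd* had a log2 fold change of -2.22, *Nog* of -1.81 and *Grem1* of -1.37. The TGF beta induced matrix gene *Tgfbi* fell from 91.6 and 91.2 CPM to 16.9 and 17.5 CPM (-2.41, SE 0.06). The 2 higher members were ligands, *Tgfb2*, from 34.8 and 35.4 CPM to 101 and 105 CPM (1.56, SE 0.06), and *Bmp6* (1.48). Wnt pathway genes moved both ways, with 5 of 39 higher and 7 lower and a median of 0.04. *Rspo2*, a secreted enhancer of Wnt signalling, fell from 33.3 and 34.9 CPM to 2.68 and 2.47 CPM (-3.73, SE 0.10). Its receptor gene *Lgr5* fell from 11.7 and 12.9 CPM to 0.715 and 1.03 CPM (-3.80, SE 0.20). *T* (-4.14) and *Sp5* (-2.21), both Wnt targets, fell, whereas *Axin2*, another target, rose from 13.6 and 13.3 CPM to 31.1 and 27.1 CPM (1.11, SE 0.10). The ligand *Wnt7b* rose from 0.578 and 0.494 CPM to 4.86 and 3.92 CPM (3.03, SE 0.26).

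Genes that fibroblasts and other somatic cells use for matrix and for signals to immune cells were lower more often than higher. Among chemokines and cytokines, 8 of 33 were lower and 2 higher, against 4.14% and 4.56% of all tested genes, with a median of -0.46. *Cxcl1*, a neutrophil attractant, fell from 356 and 358 CPM to 93.0 and 92.9 CPM (-1.94, SE 0.04), and *Il6* fell from 23.8 and 21.3 CPM to 9.11 and 10.0 CPM (-1.23, SE 0.09). The higher ones were *Ccl20* (1.52) and *Il15* (1.31). Among matrix metalloproteinases and their inhibitors, 6 of 28 were lower and 1 higher, with a median of -0.44. *Mmp3*, stromelysin, fell from 688 and 665 CPM to 289 and 274 CPM (-1.26, SE 0.04), and *Timp3*, an inhibitor, had a log2 fold change of -1.46. Without NRRA replicate 2, 3 of the 28 were lower, and without NR replicate 2 or NRRA replicate 1, 2 were higher. Among 37 collagen chains, 4 were lower (*Col13a1*, *Col28a1*, *Col6a3* and *Col2a1*) and 1 higher (*Col9a2*), with a median of -0.13, and 0 were higher with DESeq2 or among genes averaging at least 50 counts. *Col13a1* fell from 24.7 and 24.6 CPM to 2.11 and 2.12 CPM (-3.54, SE 0.11). The list of contractile and myofibroblast genes differed from this pattern, with 1 of 27 higher and 1 lower and a median of 0.17. At an adjusted p under 0.05 by edgeR, 13 were above and 7 below 0, against 21.3% and 22.1% of all tested genes. Its lowest and highest members are given. *Tnc*, tenascin, fell from 5326 and 5509 CPM to 2376 and 2261 CPM (-1.22, SE 0.03), while *Tpm1*, a tropomyosin of actin filaments, rose from 372 and 371 CPM to 1008 and 1019 CPM (1.45, SE 0.04). Within 14 small leucine-rich proteoglycans, *Aspn* fell from 118 and 116 CPM to 23.6 and 25.1 CPM (-2.26, SE 0.06) and *Ogn* rose from 72.6 and 75.4 CPM to 320 and 295 CPM (2.05, SE 0.05). The 22 markers of MEFs themselves were mostly lower by less than 2-fold, with 4 above and 16 below 0 at an adjusted p under 0.05 by edgeR. Their 2-fold calls went both ways, and counts this small are not read as a result about the list. Called higher were 3 (*Fap* at 3.20, *Mfap5* at 1.19 and *Twist2* at 1.18). Called lower were 2 (*Meox1* at -2.24 and *S100a4* at -1.46). Of the exon bases of *S100a4*, 51.7% are shared with *Gm42674* on the same strand. The median of the MEF list was -0.28.

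Keratins and cornified envelope genes that could be tested were called higher more often than lower. Of 43 listed, 19 did not pass the filter on low counts. Of the 24 tested, 8 were called higher and 1 lower, against 4.56% and 4.14% of all tested genes, with a median of 0.34. Members near the limit of detection in NR, such as *Flg*, passed the filter only through groups where they were high. The count thus describes the members that passed and not the whole list. The lower gene was *Krt80* (-1.18), and leaving out single NR or NRRA libraries gave 2 lower genes (NR replicate 1), 3 (NRRA replicate 1) or 0 (NR replicate 2 or NRRA replicate 2). *Sprr1a* rose from 0.241 and 0.0759 CPM to 4.90 and 5.01 CPM (5.01, SE 0.30), and *Sprr3* from 0.771 and 0.266 CPM to 8.68 and 10.0 CPM (4.24, SE 0.24). Without NR replicate 1 the values were 5.92 and 5.10, and without NR replicate 2 they were 4.32 and 3.58. The SPRR genes are close copies of each other, so reads may have been assigned to the wrong one. *Flg*, filaggrin, had 4 counts in both NR libraries and 208 in both NRRA libraries, a ratio of 41.4 (exact 95% counting interval 15.9 to 153). *Krt20* (3.52) and the crosslinking enzyme *Tgm1* (2.07) also rose on the log2 scale. All these genes were near 10 CPM or below in the 4 libraries.

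Markers of other testis cells were also measured. Of 12 Sertoli cell markers, 9 were tested, and *Amh*, *Fshr* and *Rhox8* did not pass the filter on low counts. Of the 9, 3 were called higher and 1 lower, against 4.56% and 4.14% of all tested genes. Counts this small are not read as results about a cell type. *Clu* rose from 6.26 and 7.14 CPM to 29.9 and 31.6 CPM (2.19, SE 0.10) and *Aard* (2.09) also rose, while *Sox9* fell from 34.7 and 37.5 CPM to 7.29 and 6.999 CPM (-2.34, SE 0.08). *Cldn11* was called higher, with 5 counts in both NR libraries together and 32 in both NRRA libraries, a ratio of 5.10 (exact 95% counting interval 1.97 to 16.8). The summed Sertoli level was 1054 and 1071 CPM in NR and 1064 and 1106 CPM in NRRA. Summed endothelial markers were at 61.6 and 61.9 CPM in NR and 47.3 and 45.8 CPM in NRRA, with 1 of 9 called higher and 1 lower. Macrophage markers were at 346 and 342 CPM in NR and 324 and 337 CPM in NRRA, with 0 of 11 called. Only 2 of 9 Leydig cell markers passed the filter, with sums between 5.58 and 6.94 CPM in the 4 libraries.

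In nutrient and growth pathways, 0 to 3 members of a list were called in a direction. Among all tested genes 4.56% were higher and 4.14% lower, and counts this small are not read as results about the pathways. Of 33 amino acid response targets of ATF4, 0 were higher and 2 lower, namely *Phgdh*, the first enzyme of serine synthesis, from 147 and 155 CPM to 49.95 and 48.9 CPM (-1.61, SE 0.05), and the amino acid transporter *Slc7a5* (-1.07). The list's median was -0.17. Of 35 genes of cholesterol and fatty acid synthesis, 3 were higher (among them *Tm7sf2* at 1.12 and *Scd1* at 1.07) and 0 lower, with a median of 0.19. Of 37 genes of glycolysis and the hypoxia response, 1 was higher (*Adm*, 1.31) and 3 lower (*Epas1* at -1.26, *Ndrg1* at -1.11 and *Pdk1* at -1.06), with a median of -0.19. No gene was called in either direction among 48 of the lysosome and autophagy, 53 nuclear and 13 mitochondrial respiratory chain genes, 22 tRNA synthetases, 33 chaperones, 30 Polycomb subunits and 36 mitosis genes. At an adjusted p under 0.05 in edgeR's test, with no fold limit, these lists had 8 above and 19 below 0 (lysosome), 6 and 13 (nuclear respiratory chain), 0 and 5 (mitochondrial), 1 and 13 (tRNA synthetases), 3 and 19 (chaperones) and 11 and 7 (Polycomb). By the same rule, 21.3% of all tested genes were above and 22.1% below 0.

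Cell division genes differed by small amounts. Among the 36 mitosis genes, 25 had an adjusted p under 0.05 above 0 and 1 below 0 by edgeR, against 21.3% and 22.1% of all tested genes, and the median was 0.28. *Mki67*, a proliferation marker, was at 225 and 214 CPM in NR and 340 and 311 CPM in NRRA (0.57, SE 0.07). *Ccnb1*, a mitotic cyclin, was at 72.1 and 69.1 CPM in NR and 68.0 and 72.8 CPM in NRRA, which overlap. Of 46 DNA replication genes, 0 were called higher and 1 lower, *Chaf1b*, a histone chaperone, from 57.0 and 57.9 CPM to 19.3 and 18.97 CPM (-1.59, SE 0.06), with a median of 0.12. Of the genes of ribosome biogenesis, 0 of 40 were above 0 and 30 below 0 at an adjusted p under 0.05, with a median of -0.24 and 1 called lower (*Rrp9*, -1.08).

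**Figure D4:**
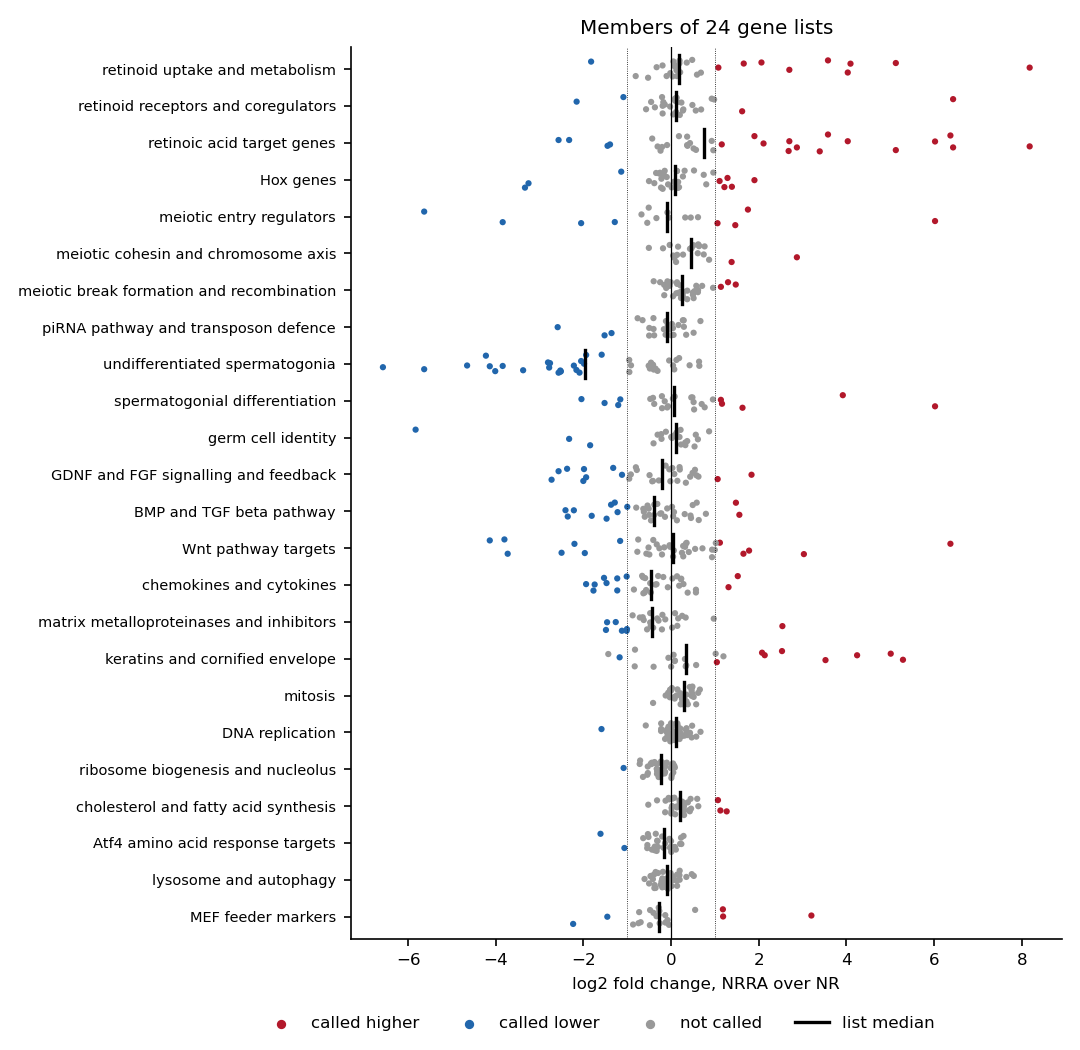
Log2 fold change of NRRA over NR for the tested members of 24 gene lists, 1 point for each gene, with red for genes called higher, blue for genes called lower, grey for others and a black bar at each list's median. The thin line marks the median of all tested genes and the dotted lines mark 2-fold changes, and the list of undifferentiated spermatogonia has its median at -1.96.

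Among imprinted genes, which are expressed from 1 parental copy, 4 of 34 were higher and 1 lower, with a median of 0.04. Of all tested genes, 4.56% were higher and 4.14% lower, and counts this small are not read as results about the list. *Peg3* rose from 141 and 142 CPM to 458 and 460 CPM (1.70, SE 0.04), *Zim1*, its neighbour in the same imprinted domain, rose from 3.95 and 5.16 CPM to 21.4 and 22.955 CPM (2.27, SE 0.13), and *Magel2* (2.58) and *Gatm* (1.10) also rose. *Mest* fell by 1.10 on the log2 scale. Of 14 *Rhox* homeobox genes on the X chromosome, 3 were higher (*Rhox6*, *Rhox9* and *Rhox13*) and 0 lower, with a median of 0.53, and *Rhox6* and *Rhox9* stayed under 1 CPM.

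By size of change, among genes averaging at least 50 counts, the 12 largest increases included those of *Csn3*, *Cyp26a1*, *Rarb*, *Stra8*, *Foxn4*, *Flg*, *Stra6*, *Sprr1a*, *Sprr3*, *Cyp26c1* and *Cyp26b1*. *Csn3*, a milk casein, had no count in the NR libraries and 134 and 164 counts in the NRRA libraries, and was at least 38.9-fold higher, with 3 counts in each library as the limit. *Foxn4*, a forkhead factor, had a log2 fold change of 5.68. The 12 largest decreases were those of *Dppa3*, *Ighm*, *Barhl2*, *Tcl1*, *Pcdh12*, *Adcy10*, *Skor1*, *Lbhd2*, *Neurog3*, *Chl1*, *Nefm* and *Sall3*. *Barhl2*, a homeobox gene of neurons, fell from 42.7 and 39.3 CPM to 1.82 and 1.19 CPM (-4.77, SE 0.12). *Chl1*, a neural adhesion molecule, fell from 32.0 and 33.2 CPM to 1.68 and 1.99 CPM (-4.14, SE 0.13). *Nefm*, a neurofilament, fell from 63.6 and 62.4 CPM to 3.79 and 3.66 CPM (-4.08, SE 0.08). *Sall3*, a zinc finger factor, fell from 63.2 and 59.7 CPM to 4.22 and 3.34 CPM (-4.03, SE 0.09). *Adcy10*, the soluble adenylyl cyclase, had a log2 fold change of -4.30, the corepressor *Skor1* of -4.28 and the protocadherin *Pcdh12* of -4.35.

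RA was also added to complete medium, which allowed its effect in both media to be compared. The media differed in GDNF, FGF2 and serum as well as in nutrients, and these cannot be told apart in the differences below. RA vs Veh gave 970 higher (4.74%) and 564 lower genes (2.75%). Called higher in both media were 474 genes, 50.8% of the 933 under nutrient restriction and 48.9% of the 970 in complete medium. Called lower in both were 388 genes, 45.8% of the 848 and 68.8% of the 564. Calls in 1 medium do not show a difference between media, so the difference of the responses, NRRA over NR minus RA over Veh, was tested as an interaction. It was called above 0 for 161 genes (0.786%) and below 0 for 298 genes (1.46%) with edgeR's quasi-likelihood test. Of the 459 genes called higher under nutrient restriction and in neither direction in complete medium, 76 had an interaction called above 0. Of the 453 genes called lower in the same way, 114 had one called below 0. Of the 933 higher genes, 876 had a log2 fold change above 0 in complete medium too, and of the 848 lower genes, 770 were below 0.

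For *Cyp26a1* and *Rarb*, RA over Veh was 7.999 and 6.55 on the log2 scale, and the interactions of 0.18 (SE 0.44) and -0.11 (SE 0.41) did not pass the test. *Cyp26b1* responded more under nutrient restriction, with 125 and 119 CPM in Veh and 713 and 647 CPM in RA and an interaction of 1.55 (SE 0.07, edgeR adjusted p = 2.63e-14). Its level in NR was below that in Veh, and its level in NRRA was below that in RA. *Tgm2* (1.81) and *Crabp2* (1.46) also had interactions above 0. *Stra8* and *Kit* had interactions below 0, of -2.90 (SE 0.15, edgeR adjusted p = 1.76e-13) and -1.12 (SE 0.10). *Stra8* had 1.14 and 1.51 CPM in Veh and 632 and 653 CPM in RA, and *Kit* had 6.34 and 6.31 CPM in Veh and 212 and 203 CPM in RA. For both genes the NR libraries lay above the Veh libraries, and the NRRA libraries lay above the RA libraries.

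The list of undifferentiated spermatogonia was also compared between the media. Its median log2 fold change was -1.96 there and -0.84 in complete medium, where 18 of 40 were called lower and 1 higher, and the interaction was called below 0 for 10 and above 0 for 2. *Gfra1* had 101 and 101 CPM in Veh and 76.9 and 74.6 CPM in RA, and its interaction was -1.52 (SE 0.08, edgeR adjusted p = 1.99e-13). *Etv5* (-1.18) and *Dusp6* (-1.39) had interactions below 0 as well. *Zbtb16* and *Ret* fell in both media, with interactions of -0.42 and -0.41 that stayed under the 2-fold limit. *Id4* went the other way, with 14.7 and 13.9 CPM in Veh, 4.23 and 3.78 CPM in RA and an interaction of 1.39 (SE 0.15, edgeR adjusted p = 2.82e-07).

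Whether in a list or not, the genes with the largest interactions above 0, at an average of at least 50 counts, were *Csn3*, *Prss35*, *Pcdh10*, *Tril*, *Itga8*, *Ddc*, *Areg* and *Ppp1r1b*. *Prss35*, a protease, rose from 5.88 and 7.21 CPM in NR to 50.1 and 50.4 CPM in NRRA and went from 13.3 and 13.6 CPM in Veh to 8.87 and 9.40 CPM in RA (interaction 3.48, SE 0.14). *Tril*, a Toll-like receptor adaptor, fell in complete medium from 8.37 and 6.93 CPM to 1.68 and 1.91 CPM and had 12.3 and 14.4 CPM in NR and 15.6 and 18.0 CPM in NRRA (2.41, SE 0.21). The *Csn3* interaction (4.58, SE 1.52, edgeR adjusted p = 0.0476) rests on no count in NR and did not pass with DESeq2 (adjusted p = 0.0801). Leaving out any 1 library other than Veh replicate 1 took its edgeR adjusted p to between 0.056 and 0.23, and over all alternatives it ran from 0.0351 to 1. The largest interactions below 0 were those of *Lgr5*, *Chl1*, *Agtr2*, *Stra8*, *Dio3*, *Tbc1d30*, *Pxt1* and *Sall3*. The *Lgr5* interaction (-4.40, SE 0.73) was -3.61 without Veh replicate 1 and -6.36 without Veh replicate 2, and *Lgr5* had 0.0495 and 0.365 CPM in Veh. *Agtr2*, an angiotensin receptor, fell from 47.7 and 48.3 CPM in NR to 16.3 and 16.9 CPM in NRRA and rose from 10.4 and 11.5 CPM in Veh to 38.9 and 35.7 CPM in RA (-3.30, SE 0.11, edgeR adjusted p = 5.88e-17). It was 1 of 7 genes called in opposite directions in the media, all 7 lower under nutrient restriction and higher in complete medium. *Dio3*, a thyroid hormone-inactivating enzyme, had 0.347 and 0.208 CPM in Veh, 3.16 and 2.57 CPM in RA, 17.8 and 19.5 CPM in NR and 31.2 and 32.4 CPM in NRRA (-2.54, SE 0.36).

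**Figure D5:**
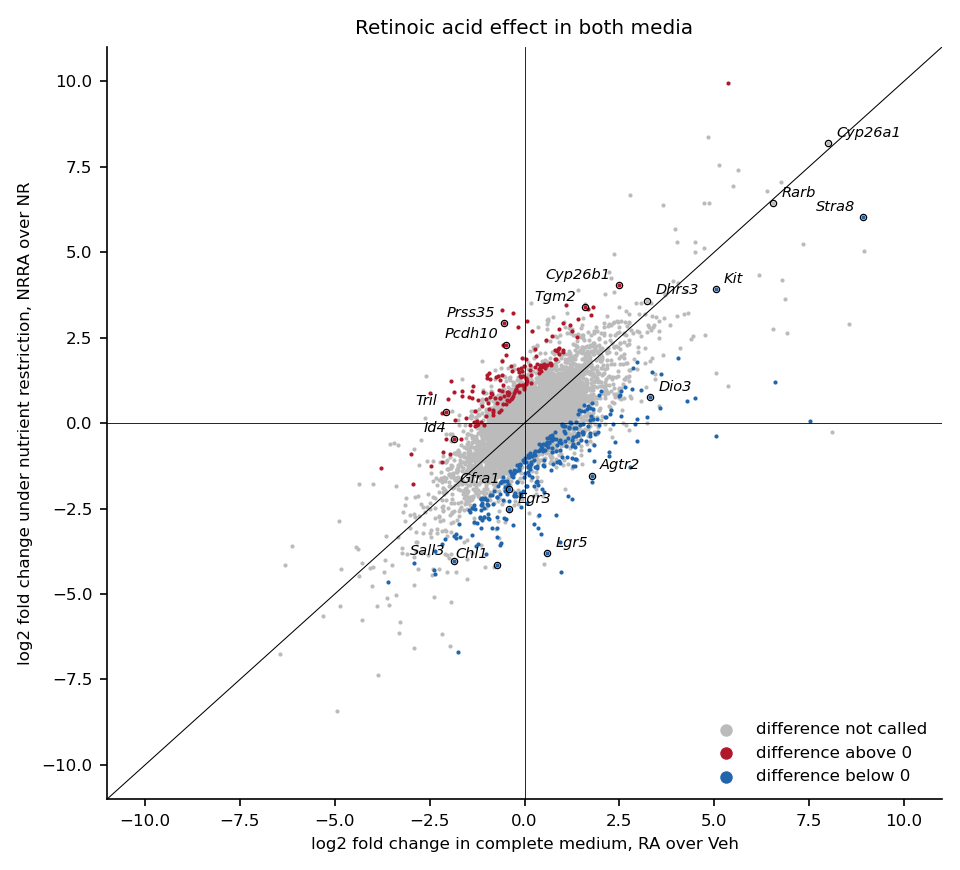
Log2 fold change of RA over Veh in complete medium (horizontal axis) against NRRA over NR in nutrient restriction medium (vertical axis), 1 point for each of 20477 tested genes, with red for the 161 genes whose interaction was called above 0 and blue for the 298 below 0. *Cyp26a1* and *Rarb* lie near the line of equal response, *Cyp26b1* and *Prss35* above it, and *Stra8*, *Lgr5* and *Agtr2* below it.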

How the data were processed

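RNA was sequenced from 8 libraries, 2 for each of Veh, RA, NR and NRRA, described by the study as independent biological replicates. Per the labels, poly(A) libraries were made with a stranded kit, and the submitters' processing notes name bcl2fastq, STAR 2.6.1c, featureCounts 1.6.4 and mm10. The strand setting of the counting is not given in the sources used here. The authors deposited raw read counts per gene, without normalization, for 55421 identifiers, of which 55240 matched GENCODE M21 (GRCm38). All 8 columns were used and 0 had no sample. The authors' own comparisons were not used here.

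Weakly expressed genes were removed with filterByExpr, libraries were scaled by TMM and a quasi-likelihood model was fitted over all 8 libraries (edgeR 4.0.16, R 4.3.3), with 1 coefficient per group, a common biological coefficient of variation of 3.35% and 4 residual degrees of freedom. NRRA minus NR, RA minus Veh and their difference (the interaction) were tested by edgeR's quasi-likelihood F test, with p-values adjusted by the Benjamini-Hochberg method over 20477 genes. Calls needed an adjusted p under 0.05 together with a change of 2-fold or more. The SE is the absolute log2 fold change divided by the square root of F. The study used DESeq2, which was run as an alternative (version 1.42.0), with limma 3.58.1 loaded by edgeR. Library totals ran from 19261333 to 30023585 counts, so that 1 CPM was about 20 to 30 reads in these libraries and genes near 1 CPM have wide errors. Folds against groups without a count use a floor of 3 counts in each library, and ratios with few counts carry exact 95% intervals. Floors and intervals cover counting error only.

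The code was tested on simulated counts for the same 20477 genes. The changed genes averaged at least 50 counts, and all genes were given the same spread. A gene was scored as recovered at an adjusted p under 0.05 in edgeR's test and a fold limit lower than 2. For NRRA vs NR, edgeR recovered 99 of 100 genes changed 2-fold and 100 of 100 changed 4-fold with 6 false calls, and for the interaction 93 and 100 with 3. Recovery under the 2-fold limit used for calls, and of weakly expressed genes, was not measured. Same-numbered libraries of different groups did not deviate together (r from -0.0716 to 0.0778), and replicate numbers were not used as pairs. With 2 libraries in each group, this check cannot exclude that cultures were paired.

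The members and the 54 gene lists were chosen with earlier results of these data known, and lists are described by counts and medians without a set test. Genes named are the 12 largest increases and decreases with a mean of at least 50 counts over the NR and NRRA libraries and no overlap between these groups, starred list members and up to 5 further called members of a list in each direction, and the 8 largest interactions in each direction. Predicted or clone-based names were left out of the first and last. The remaining list members named were chosen after their values were seen. Some genes that the rule names are not reported here. Alternatives were DESeq2, median-of-ratios size factors, library totals, no filter, a filter at a mean of 50 counts, no fold limit, a test against a fold of 2, only the NR and NRRA libraries, a replicate block and leaving out each library. Python 3.11.15, pandas 2.3.3 and matplotlib 3.10.9 were used for lists and figures. Promoter windows are those of RefSeq, GRCm38.p6.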

Additional observations from a re-analysis of the deposited data

Results flagged for a closer look

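The RA response differed between nutrient restriction and complete medium for 161 genes above 0 and 298 genes below 0, by edgeR's quasi-likelihood test of the interaction. With 2 libraries in each group, libraries were not tested for standing apart from their group. Each gene below had an interaction that passed that test, and the value is the interaction on the log2 scale.

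Among retinoid and RA-responsive genes, the interaction was above 0 for *Cyp26b1* (1.55), *Crabp2* (1.46) and *Tgm2* (1.81). For *Egr1* it was -1.11. Among spermatogonial genes it was below 0 for *Stra8* (-2.90), *Kit* (-1.12), *Gfra1* (-1.52), *Etv5* (-1.18), *Tcl1* (-1.07) and *Dmrtb1* (-1.80), and above 0 for *Id4* (1.39). In ERK feedback, *Dusp6* (-1.39) and *Spry1* (1.18) had opposite signs.

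Genes of somatic cells showed both signs. The interaction was above 0 for the smooth muscle actin *Acta2* (1.33) and for *Igfbp5* (1.72), and below 0 for *Igfbp4* (-1.47), *Aspn* (-1.26), *Il6* (-1.09), *Kitl* (-1.05), *Sox9* (-1.22) and *Wt1* (-1.56). The last 2 are Sertoli cell markers.

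Among the genes named by the size of the change under nutrient restriction or of the interaction, those above 0 were *Csn3* (4.58), *Prss35* (3.48), *Pcdh10* (2.78), *Tril* (2.41), *Itga8* (2.10), *Ddc* (2.00), *Areg* (1.99) and *Ppp1r1b* (1.92). Those below 0 were *Lgr5* (-4.40), *Chl1* (-3.41), *Agtr2* (-3.30), *Dio3* (-2.54), *Tbc1d30* (-2.31), *Pxt1* (-2.20), *Sall3* (-2.18), *Adcy10* (-1.92) and *Nefm* (-1.16). The *Lgr5* value was -3.61 without Veh replicate 1 and -6.36 without Veh replicate 2. In complete medium without RA, *Lgr5* had 0.0495 and 0.365 CPM and *Areg* had 11.99 and 11.8 CPM.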

How the results depend on the processing

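The counts of 933 higher and 848 lower genes in NRRA vs NR depended most on the fold limit and on weakly expressed genes. They were 4353 and 4535 with no fold limit, 347 and 402 when tested against a fold of 2, and 423 and 439 for genes averaging at least 50 counts. DESeq2 gave 713 and 750. Scaling by library totals gave 1087 and 746, with a median log2 fold change of 0.09 over all genes. Leaving out 1 library of any group gave 811 to 965 higher and 788 to 923 lower genes. The interaction counts of 161 above and 298 below 0 were 1304 and 1348 with no fold limit, 24 and 43 when tested against a fold of 2, and 103 and 184 with DESeq2. Above 0 it was 102 for genes averaging at least 50 counts. Leaving out 1 library gave 117 to 169 above and 223 to 371 below 0. The cause was not tested, except that a fold limit or fewer genes tested changes a count by construction. A replicate block gave 928 higher and 843 lower genes and interactions of 155 above and 296 below 0, and changed no call of these counts by over 1.5 times. The 24 genes named for the size of the change in NRRA vs NR kept their call in all 306 alternative values. The 16 named for their interaction kept it in 243 of 256 values and turned in 0. The 13 losses were those of *Csn3*, and of *Areg*, *Ppp1r1b* and *Pxt1* when tested against a fold of 2. Depth limits genes near 1 CPM, and with 2 libraries in each group the p-values rest on a spread shared by all groups.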

Other observations

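The observed share of called genes varied between chromosomes, and chromosomes X, 3 and 10 were picked after all shares were seen. On the X chromosome, 66 of 769 tested genes were higher in NRRA than in NR (8.58%) and 30 were lower (3.90%), against 4.56% and 4.14% of all tested genes, and the median log2 fold change there was 0.12. The X-linked genes with the highest values included *Otud6a* (3.16), *Gpr50* (2.28), *Grpr* (2.21), *Dgkk* (2.03), *Magea2* (1.67) and *Bex2* (1.64), named after their values were seen. Chromosome 3 had 66 of 1030 higher (6.41%) and 24 lower (2.33%), and chromosome 10 had 28 of 956 higher and 56 lower. None of the 25 genes of the mitochondrial genome was called by edgeR's test. These counts carry no test of their own and take no account of expression level, with which the share of called genes varied.

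Long intergenic noncoding RNAs were lower more often than higher, with 54 of 699 lower (7.73%) and 31 higher (4.43%). Protein-coding genes had 652 of 15568 lower (4.19%) and 761 higher (4.89%).

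Besides *Cyp26a1* and *Rarb*, the repeat of NGNTCA spaced by 5 bases was found in the promoter windows of 10 other genes called higher, named after their values were seen: *Gm5941*, *Ppbp*, *Bmp6*, *Tnfsf13b*, *Ntf3*, *Prokr2*, *Acp5*, *Stox1*, *Dmd* and *Blvrb*. Repeats spaced by 1 base were in 1.25% of all windows, 1.01% of those of genes called higher and 0.704% of those of genes called lower. Repeats spaced by 2 bases were in 1.11%, 1.26% and 0.704% in the same order.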
